A study of Homo sapiens with 12 samples.

Results

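HepG2 cells carrying HDAC1_S434A and grown without H89 were compared with HepG2 cells carrying wild type HDAC1 and treated with H89. The 6 libraries of this comparison, 3 biological replicates a group, were taken from the 12 libraries of the series by genotype and treatment as labelled. HepG2 is an established human liver tumour line of hepatocyte character. H89 is a small molecule that inhibits protein kinase A (PKA) by occupying its ATP pocket, and it is known to act on other kinases too. The wild type cells without H89 and the S434A cells with H89, 3 libraries each, are given as levels only. The labels do not say how the S434A cells were made, whether they are a clone, or at what dose and for how long H89 was given. The comparison asks in which mRNAs the loss of the serine and the inhibitor give different states, and therefore differs in genotype and in treatment at the same time.

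HDAC1 is a class I histone deacetylase that removes acetyl groups from histone tails as the catalytic subunit of the NuRD, Sin3 and CoREST repressor complexes. PKA is released from its regulatory subunits by cAMP, and in liver it phosphorylates CREB and its partners, which turn on the genes of gluconeogenesis during fasting. The serine changed in S434A lies in the C-terminal tail of HDAC1, outside the catalytic domain, and an alanine at that place cannot be phosphorylated. The reference coding sequence around this serine is shown because the genotype label names it, with the codon of that serine in capitals. The stretch covers codons 424 to 444 of the 482 codons of GENCODE transcript ENST00000373548.7.
HDAC1 codons 424 to 444: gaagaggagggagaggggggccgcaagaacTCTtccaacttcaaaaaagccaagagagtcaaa

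Counts per gene do not show a point mutation, so the genotype labels could not be checked here. Library totals were 17562754 to 18533717 read pairs in untreated S434A and 20223311 to 21922022 in H89-treated wild type. Hepatocyte markers were present throughout, the lowest of 10 standing at 46.2 to 71.3 CPM in untreated S434A and 48.3 to 53.9 CPM in H89-treated wild type, where CPM are read counts per library size, on 1 scale for all 12 libraries. Replicate 1 of untreated S434A stood apart in its albumin and mitochondrial shares. Albumin took 0.293% of its counts against 1.82% and 2.43% in its replicates, and mitochondrial mRNA took 7.02% against 4.09% and 3.16%. The biological coefficient of variation was 0.352 in untreated S434A and 0.0775 in H89-treated wild type. Across genes, the difference between the groups followed GC content (Spearman rho 0.65) and transcript length (rho -0.41), and together these accounted for 55.1% of its variance. Without replicate 1 the rho values were 0.54 and -0.42. For this reason values are also given trend-corrected, that is after the smooth dependence of every library on GC content and length was removed, and without replicate 1. In GC content, replicate 3 of untreated S434A stood apart instead. The deviation of genes from their mean over the 6 libraries followed GC content at rho 0.79, 0.58 and -0.32 in S434A replicates 1, 2 and 3. In H89-treated wild type it was -0.59, -0.56 and -0.71. Values as counted without replicate 1 therefore still hold this spread within S434A. The part of these trends in any result was not otherwise tested. Markers of other cells were low or few: COL1A2, COL3A1, DCN, THY1, PTPRC, CD3E, MS4A1, HBB, KDR and TEK were at 0. Of 23 such markers 7 were tested and 5 were higher in untreated S434A (PDGFRB, CD3D, CD14, LYZ and VWF), and their part in the results was not tested. The blood list summed to 2370 to 2893 CPM against 1863 to 2031 CPM, nearly all of it LYZ, the fibroblast list to 24.4 to 39.6 against 19.8 to 21.0 CPM, and the endothelial list to 4.51 to 8.75 against 4.51 to 5.71 CPM.

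Untreated S434A cells held more mRNA for the plasma proteins HP, PLG and HPX, for HAL and GNMT of amino acid breakdown and for the gluconeogenic enzymes G6PC1, PCK1 and PCK2 than H89-treated wild type cells, and less mRNA for CYP1A1, CEMIP, CYP24A1 and MALAT1. Of 13709 genes tested with edgeR's quasi-likelihood test, 338 were more than 2-fold higher in untreated S434A (2.47%) and 587 more than 2-fold lower (4.28%) at a Benjamini-Hochberg adjusted p under 0.05, together 925 (6.75%). Of these 925 calls 36.5% were in the higher direction, and this share moved with the scaling and with the fit. It was 55.9% with RLE factors, 59.0% with TMM factors from all genes with a nonzero total, 57.2% with upper-quartile factors and 60.0% after trend correction. It was 18.96% in DESeq2, 16% in limma-voom with group weights, 15.6% with all 12 libraries in the fit and 23.8% without S434A replicate 1. Over all genes tested, the median difference on the log2 scale was -0.02, and it was 0.11 with upper-quartile factors. The sign of a gene or list a little below 0 as counted can therefore change with the scaling. FOS, for example, stood at -0.03 as counted and at 0.05 with RLE factors. At any fold, 1852 genes (13.5%) were higher and 1241 (9.05%) lower at an adjusted p under 0.05. These shares of all genes are the background for each list below. The trend-corrected shares were 16.6% higher and 15.8% lower, and without replicate 1 of S434A they were 15.7% and 24.3%. The libraries of the groups did not overlap for 3389 genes in the higher direction (24.7%) and for 4489 in the lower (32.7%). For 7637 genes (55.7%) the 95% interval of the difference lay within 2-fold.

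The calls rested on few libraries. Trend correction gave 437 higher (3.21%) and 291 lower (2.14%) genes past 2-fold, and 328 of the 925 calls were also called there. Without S434A replicate 1 there were 357 higher and 1140 lower, and without S434A replicate 3 there were 440 and 1862. Without S434A replicate 2, or without any 1 of the 3 H89-treated wild type libraries, no gene passed in edgeR. The lowest adjusted p in those 4 fits was 0.0521, 0.0803, 0.0848 and 0.0743, with 3897 to 4283 genes at an unadjusted p under 0.05, so every call on the values as counted is lost when any of these 4 libraries is left out. Some named genes that passed at any fold did not pass with RLE, upper-quartile or the other TMM factors (adjusted p 0.0502 to 0.157 in edgeR). Lost in at least 1 of the 3 were ADAMTS6, CREB1, FOXO1, HERC2, IGF1R, IRS1, KCNG3, LAMA3, LAMC1, LPIN1, MTA3, NORAD, ONECUT1, PIK3R1, PRKAR2A, RINT1 and SQLE. In this bulk RNA, fewer cells with a transcript and less of it per cell cannot be told apart. The plot of the difference against level shows the called genes and those named below.

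**Figure D1:**
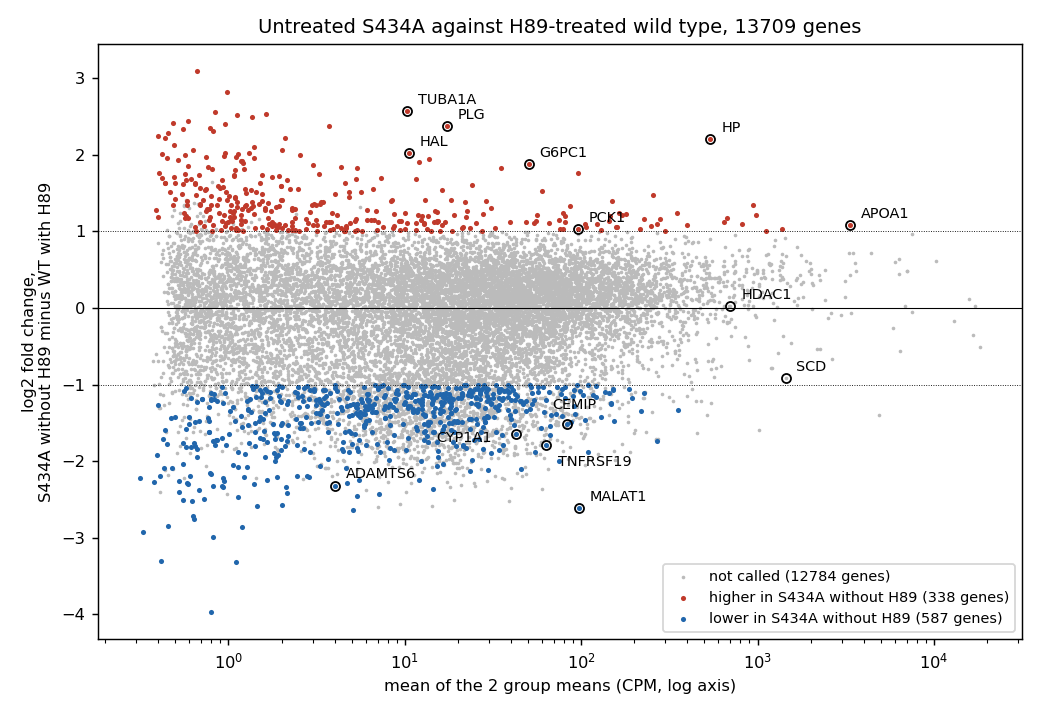
Log2 fold change of untreated S434A minus H89-treated wild type (vertical axis) against the mean of the group means in CPM (horizontal log axis), 1 point for each of 13709 genes; red and blue points are the 338 higher and 587 lower calls, dotted lines mark 2-fold and circled genes are named. HDAC1 lies at 0.02, PLG and TUBA1A lie above 2, and MALAT1 lies at -2.62.

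HDAC1 (chromosome 1, identifier ENSG00000116478.12_7) did not differ beyond the replicate spread. Its level was 712, 752 and 659 CPM in untreated S434A and 693, 664 and 731 CPM in H89-treated wild type, with means of 688 CPM in wild type without H89 and 618 CPM in S434A with H89. The groups overlapped, and the log2 fold change was 0.02 (SE 0.09, 95% interval -0.19 to 0.23, adjusted p = 0.847), or -0.13 after trend correction. HDAC3, the deacetylase of the NCoR complex, had 90.8 to 96.3 CPM against 78.7 to 81.2 CPM (log2 0.23, adjusted p = 0.0752). HDAC2, the close paralogue that shares the HDAC1 complexes, had 20.3, 51.0 and 62.8 CPM against 96.5, 90.9 and 115 CPM (log2 -1.17, adjusted p = 0.0773). The groups did not overlap, and HDAC2 passed without S434A replicate 1 (-0.83, adjusted p = 0.00361). Its value turned to 0.38 after trend correction and did not pass there (adjusted p = 0.13). Of 17 HDAC and sirtuin genes tested, 2 were higher and 0 lower, with a median of 0.08, and the interval lay within 2-fold for 14. The 2 were SIRT3, the main mitochondrial deacetylase (log2 0.48, adjusted p = 0.0479), and the nucleolar deacylase SIRT7 (0.42, adjusted p = 0.0426), and SIRT7 did not pass after trend correction (0.21, adjusted p = 0.266). Without S434A replicate 1, 2 were higher and 3 lower.

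Among 32 genes of class I HDAC corepressor complexes, 1 was higher and 7 lower, with a median of -0.15, and 27 lay within 2-fold. NCOR1, the scaffold of the HDAC3 complex, was the one past 2-fold, with 18.3, 37.4 and 48.3 CPM against 83.4, 90.2 and 93.6 CPM (log2 -1.36, adjusted p = 0.0396, trend-corrected -0.75). The CoREST scaffolds RCOR1 (-0.75) and RCOR3 (-0.88), the LSD1 partner PHF21A (-0.49) and the NuRD subunit MTA3 (-0.43) were lower as counted. After trend correction RCOR3 stood at 0.17 and MTA3 at 0.00, and none of these 4 genes passed. With upper-quartile factors 4 of the 32 were lower and 2 higher.

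PRKACA, the main catalytic subunit of PKA, had 95, 84.8 and 66.4 CPM in untreated S434A and 77.1, 77.1 and 65.7 CPM in H89-treated wild type. The groups overlapped (log2 0.16, SE 0.15, 95% interval -0.21 to 0.53, adjusted p = 0.436). PRKAR1A, the type I regulatory subunit that holds the kinase inactive, had 129, 214 and 252 CPM against 277, 263 and 307 CPM (log2 -0.51, adjusted p = 0.155). Its trend-corrected value had the other sign and passed the test (0.40, adjusted p = 0.0137). Of 13 genes for PKA subunits, PKA inhibitors and anchoring proteins, 1 was higher and 3 lower, with a median of -0.51. The catalytic subunit PRKACB (-1.50), the anchoring protein AKAP13 (-1.01) and the regulatory subunit PRKAR2A (-0.31) were lower, and the inhibitor peptide gene PKIG (0.44) was higher. After trend correction AKAP13 still passed (-0.47, adjusted p = 0.0103), while PRKACB stood at -0.18, PRKAR2A at -0.18 and PKIG at 0.04.

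Phosphodiesterases, which break down cAMP, made up the whole of what passed among 11 genes for adenylyl cyclases, Gs and phosphodiesterases: 0 were higher and 4 lower, with a list median of -0.12. PDE4D, a cAMP-specific enzyme, had 1.51, 3.27 and 4.57 CPM against 10.3, 9.62 and 12.2 CPM (log2 -1.78, adjusted p = 0.0285), and was lowest in S434A replicate 1. PDE3B, the form that insulin activates, had 3.28, 7.75 and 10.2 CPM against 19, 20.2 and 26.3 CPM (log2 -1.62, adjusted p = 0.0412). In neither gene did the groups overlap. Trend-corrected values were -0.47 for PDE4D and -0.56 for PDE3B, both past the test. PDE7A was lower as counted (-1.17, adjusted p = 0.0208) and did not pass after trend correction (-0.07). PDE8A was lower at -0.90 and -0.32.

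Some of the factors that PKA signals to were lower, and none of the immediate targets tested passed. Of 8 CREB factors and coactivators 0 were higher and 4 lower, with a median of -0.64. The coactivators and histone acetyltransferases EP300 (39.0, 46.3 and 38.3 CPM against 70.7, 69.3 and 68.4 CPM, log2 -0.75, adjusted p = 0.0117) and CREBBP (38.2, 40.9 and 27.7 CPM against 56.7, 59.7 and 58.3 CPM, log2 -0.71, adjusted p = 0.0302) were both lower, also after trend correction at -0.50 and -0.64. Their means in wild type without H89 were 12.9 and 12 CPM, below both groups. ATF1, a CREB relative, was lower at -1.53 and -1.04. CREB1 was lower as counted (-1.37, adjusted p = 0.0421) and stood at 0.16 after trend correction.

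Of 10 CREB-responsive and immediate early genes tested, 0 passed in either direction as counted, the median was -0.02, and the intervals of 8 lay within 2-fold. NR4A1, an orphan nuclear receptor induced by cAMP, had 17.8, 16.4 and 12.3 CPM against 15.6, 15.5 and 15.6 CPM (log2 -0.01, 95% interval -0.42 to 0.41, adjusted p = 0.979). FOS had 4.84, 4.10 and 3.63 CPM against 5.53, 3.63 and 3.72 CPM (log2 -0.03, interval -0.59 to 0.52, adjusted p = 0.916). Both genes overlapped between the groups. For EGR1 the groups did not overlap, with 17.6, 17.3 and 15.3 CPM against 23.1, 20.0 and 22.3 CPM (log2 -0.38, adjusted p = 0.0748). CREM, whose short forms repress CREB targets, stood at -0.57 (adjusted p = 0.066) and at 0.13 after trend correction. Trend correction gave 3 lower genes in this list, among them EGR1 (-0.73) and JUN (-0.53), and RLE factors gave 2 higher genes. PPARGC1A, the coactivator of fasting gluconeogenesis, had 5.11, 18.1 and 24.0 CPM against 45.3, 48.3 and 48.9 CPM (log2 -1.59, adjusted p = 0.0697), and passed without S434A replicate 1 (-1.17, adjusted p = 0.00192).

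In gluconeogenesis, G6PC1, PCK1 and PCK2 were higher in untreated S434A than in H89-treated wild type, and most other genes of the list did not pass. G6PC1, the catalytic subunit of glucose-6-phosphatase, had 93.4, 83.8 and 60.3 CPM against 20.6, 23.2 and 20.6 CPM. Every untreated S434A library was above every treated wild type library, and the log2 fold change was 1.88 (SE 0.18, 3.68-fold, adjusted p = 0.0086), 1.82 after trend correction and 1.74 without S434A replicate 1. Wild type without H89 had a mean of 40.5 CPM, between the groups, and S434A with H89 had 26.6 CPM. PCK1, the cytosolic enzyme of the committed step of gluconeogenesis, had 122, 136 and 126 CPM against 67.3, 62.8 and 58.8 CPM (log2 1.03, SE 0.09, adjusted p = 0.0086, trend-corrected 1.03). Its mean was 132 CPM in wild type without H89 and 51.9 CPM in S434A with H89. PCK2, the mitochondrial form, had 1144, 921 and 723 CPM against 419, 413 and 400 CPM (log2 1.18, adjusted p = 0.0118, trend-corrected 0.86). Of 10 genes of gluconeogenesis and glycogen tested, these 3 were higher and 1 was lower, with a median of 0.13. The lower member was GSK3B, a kinase that inhibits glycogen synthase (42.2, 41.2 and 44.9 CPM in treated wild type against 12.3, 16.4 and 19.6 CPM, log2 -1.41, trend-corrected -0.45).

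Most genes of amino acid breakdown and the urea cycle were higher in untreated S434A: 11 of 15 were higher and 0 lower, with a median of 0.82. After trend correction 13 were higher and 0 lower, and without S434A replicate 1 there were 11 and 1. HAL, which opens histidine breakdown, had 16.1, 18.2 and 16.3 CPM against 4.02, 3.88 and 4.52 CPM (log2 2.03, SE 0.15, adjusted p = 0.0086, trend-corrected 2.00). GNMT, which disposes of excess methyl groups with glycine, had 21.3, 21.8 and 21.8 CPM against 4.57, 5.65 and 6.59 CPM (log2 1.95, adjusted p = 0.0086). In both genes the groups were far apart relative to their spread, and wild type without H89 was higher still, at 21.7 CPM for HAL and 44.8 CPM for GNMT. The glyoxylate enzyme AGXT (1.40), the urea cycle enzyme ASS1 (0.91) and the tyrosine breakdown enzyme HPD (0.71) were also higher, with trend-corrected values of 1.08, 0.54 and 0.27. Serine synthesis went the same way: PHGDH, its entry enzyme, had 590, 482 and 392 CPM against 214, 199 and 204 CPM (log2 1.24, adjusted p = 0.01). Of 15 ATF4 targets and serine synthesis genes 6 were higher and 1 lower, with a median of 0.27. They included SHMT2 (0.85), which passes the carbon of serine to folate, asparagine synthetase ASNS (0.93), ATF4 itself (0.62) and PSAT1 (0.39).

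**Figure D2:**
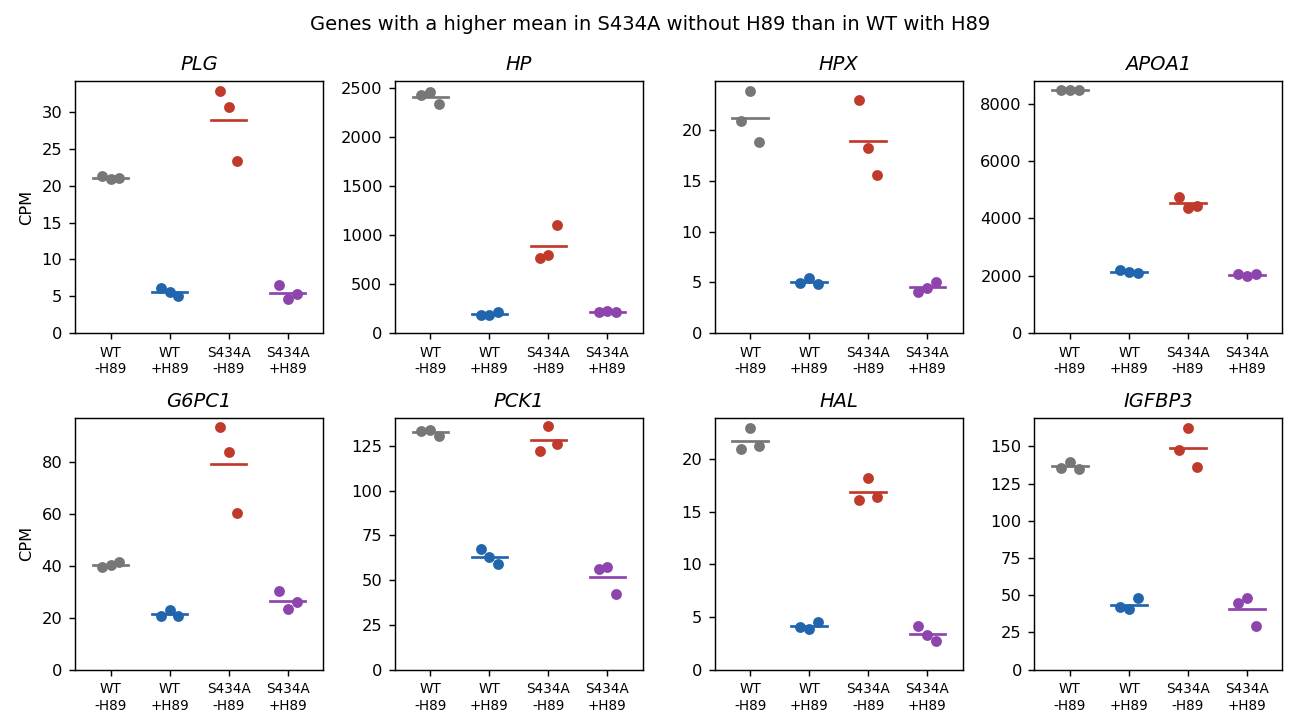
CPM of 8 genes (vertical axes from 0) in all 12 libraries, grouped on the horizontal axis as wild type without and with H89 and S434A without and with H89; points are libraries and bars are means of 3. For each gene the untreated S434A libraries (red) lie above the H89-treated wild type libraries (blue), as in G6PC1 with 60.3 to 93.4 against 20.6 to 23.2 CPM, and the S434A libraries with H89 (purple) lie near the blue ones.

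Secreted plasma proteins made up many of the largest differences in the higher direction. Of 10 acute phase genes tested 7 were higher and 0 lower, with a median of 1.06, and all 7 were past 2-fold as counted. HP, haptoglobin, which binds free haemoglobin, had 770, 796 and 1099 CPM against 186, 181 and 212 CPM (log2 2.20, SE 0.17, 4.60-fold, adjusted p = 0.0086, trend-corrected 2.16). Wild type without H89 stood above both groups at a mean of 2409 CPM, and S434A with H89 had 220 CPM. HPR, the haptoglobin-related gene that lies next to HP on chromosome 16, had a log2 fold change of 1.82, and since these near-identical genes can share reads its own value is uncertain. The same holds for ORM1 (1.09) and ORM2 (1.21), the orosomucoid pair, which fell below 2-fold after trend correction (0.61 and 0.73). Fibrinogen chain FGA (1853, 1895 and 1765 CPM against 835, 933 and 938 CPM, log2 1.03) and the protease inhibitor SERPINA3 (1.01) were higher at trend-corrected values of 1.44 and 0.86. After trend correction 8 members were higher and 1 lower.

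The clotting and complement cascades were higher in part. Of 15 coagulation and fibrinolysis genes 9 were higher and 0 lower, with a median of 0.49, and 8 were higher and 0 lower after trend correction. PLG, plasminogen, the precursor of the enzyme that dissolves fibrin, had 32.8, 30.7 and 23.3 CPM against 6.08, 5.61 and 4.99 CPM. The groups did not overlap, and the log2 fold change was 2.38 (SE 0.18, 5.20-fold, adjusted p = 0.0086). Trend correction moved it to 3.42, and its mean was 21.1 CPM in wild type without H89 and 5.49 CPM in S434A with H89. F10 (1.24) and F7 (0.97), clotting proteases, and the inhibitors SERPINC1 (0.91) and SERPIND1 (0.49) were also higher, although SERPIND1 did not pass after trend correction. KNG1, kininogen, had 4.35, 6.64 and 10.5 CPM against 2.83, 1.81 and 2.92 CPM (log2 1.51, adjusted p = 0.0382). Of 14 complement genes 8 were higher and 0 lower, with a median of 0.77, and 11 and 0 after trend correction. C8B, part of the membrane attack complex, had 23.0, 25.2 and 30.9 CPM against 8.86, 10.4 and 10.6 CPM (log2 1.41, adjusted p = 0.00949). The initiating proteases C1R (1.27), C1S (1.24), MASP2 (1.15) and MASP1 (0.87) were higher, each with a trend-corrected value of 0.84 or more.

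Carrier and lipoprotein genes that passed were all higher. Of 14 plasma carriers 6 were higher and 0 lower, with a median of 0.47. HPX, hemopexin, which binds haem, had 23.0, 18.3 and 15.6 CPM against 4.89, 5.40 and 4.85 CPM (log2 1.91, SE 0.19, adjusted p = 0.00868, trend-corrected 1.61). RBP4 (1.004), the retinol carrier, AHSG (0.97), AMBP (0.72) and SERPINA1 (0.62) were higher. ALB, albumin, did not pass: it had 2921, 17701 and 23134 CPM against 18261, 16736 and 21016 CPM, the groups overlapped, and the log2 fold change of -0.36 (adjusted p = 0.696) became 0.13 without S434A replicate 1. Of 13 apolipoprotein and lipoprotein assembly genes 6 were higher and 0 lower, with a median of 0.50, which fell to 0.06 after trend correction. APOA1, the main protein of high density lipoprotein, had 4757, 4377 and 4449 CPM against 2193, 2142 and 2099 CPM (log2 1.08, SE 0.08, adjusted p = 0.0086, trend-corrected 0.66). Its mean was 8467 CPM in wild type without H89 and 2029 CPM in S434A with H89. APOC3 (1.13), APOM (1.07) and APOC1 (1.06) were higher in both analyses, while APOA2 was higher as counted (0.34) and stood at -0.15 after trend correction.

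Of 10 protease inhibitors tested 8 were higher and 0 lower, with a median of 0.54. The list is labelled as secreted in the plot of lists, but members such as CSTA are cytosolic. SPINK1, the trypsin inhibitor that liver tumour cells also secrete, had 20.4, 21.6 and 30.9 CPM against 9.18, 7.38 and 8.57 CPM (log2 1.54, adjusted p = 0.0108), and its mean was 88.2 CPM in wild type without H89. CSTA, a cystatin, had 3.01, 3.10 and 3.68 CPM against 0.731, 0.970 and 0.612 CPM (log2 2.07, adjusted p = 0.00868). Both were higher after trend correction, at 1.73 and 2.55. TIMP1, an inhibitor of matrix metalloproteases, was higher as counted (0.67) and did not pass after trend correction (0.19).

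Other genes among the 12 largest in this direction were TUBA1A, an alpha tubulin (log2 2.58, 22.2, 17.2 and 13.7 CPM against 2.47, 3.54 and 2.87 CPM), whose reads may be shared with its paralogues, and TIE1 (2.37), an angiopoietin co-receptor known from endothelium. TIE1 had 7.10, 6.81 and 4.72 CPM against 0.868, 1.35 and 1.37 CPM, and among other endothelial markers VWF was higher (1.12), CDH5 did not pass (-0.69) and KDR and TEK were at 0. IGFBP3, a carrier of insulin-like growth factors, had 148, 163 and 136 CPM against 42.3, 40.6 and 48.0 CPM (log2 1.77, SE 0.11, adjusted p = 0.0086). DYDC2 was higher at 1.84. For these 4 genes the libraries of the groups did not overlap, and trend-corrected values were 2.28, 2.14, 1.57 and 1.95.

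The promoters of G6PC1 and PLG are shown because they belong to the largest higher differences and both hold the letters of an HNF1 site, the motif of a factor known to drive liver genes. They are RefSeq sequences of build GRCh38.p14, from 250 bases before the start site to 50 after, and the capitals mark GTTAAT followed by any base and ATT, on either strand.
G6PC1, chr17:42900549-42900848, plus strand: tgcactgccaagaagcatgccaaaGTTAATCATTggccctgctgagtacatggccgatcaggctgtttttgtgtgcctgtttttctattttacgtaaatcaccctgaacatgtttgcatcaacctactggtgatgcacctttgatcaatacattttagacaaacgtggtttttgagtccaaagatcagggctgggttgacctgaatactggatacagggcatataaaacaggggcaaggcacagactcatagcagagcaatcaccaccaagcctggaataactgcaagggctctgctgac
PLG, chr6:160701943-160702242, plus strand: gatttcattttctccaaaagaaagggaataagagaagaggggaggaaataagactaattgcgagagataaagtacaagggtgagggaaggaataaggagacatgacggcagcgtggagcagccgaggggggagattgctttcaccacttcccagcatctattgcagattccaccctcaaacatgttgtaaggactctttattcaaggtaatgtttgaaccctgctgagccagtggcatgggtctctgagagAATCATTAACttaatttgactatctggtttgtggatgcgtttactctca
The match begins at base 25 of the window in G6PC1 and at base 252 in PLG, counted from the 5′ end. It was found in these 2 of the 10 promoters with a sequence among the 12 named higher genes, in 0 of 10 among the 12 named lower genes, and in 113 of 35116 promoters of the same length (0.322%). The letters TGACG, which overlap the longer cAMP response element TGACGTCA, were in 3 of the 10 higher promoters (HAL, HPX and PLG) and in 4 of the 10 lower ones, against 24.6% of all promoters. The longer element was in 0 and 1, against 1.85%. The C/EBP letters TTNNGCAA were in 3 and 1, against 10.5%, and the xenobiotic element core TNGCGTG was in 0 and 0, against 5.51%. Each motif was sought on both strands, and a match describes letters only.

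Few genes of lipid synthesis passed the test as counted, most of those were lower in untreated S434A, and more were lower after trend correction. SCD, the desaturase that makes oleic acid, had 1042, 1069 and 885 CPM against 1985, 1962 and 1713 CPM. The groups did not overlap (log2 -0.92, SE 0.11, adjusted p = 0.00981, trend-corrected -0.75), and wild type without H89 was lower still at a mean of 566 CPM. FASN, fatty acid synthase, had 1179, 924 and 549 CPM against 1620, 1669 and 1284 CPM. Its groups did not overlap either, yet the spread in untreated S434A was wide and the difference did not pass (log2 -0.79, adjusted p = 0.087). It passed after trend correction (-0.91, adjusted p = 0.00307) and without S434A replicate 1 (-1.05, adjusted p = 0.00658). In fatty acid and triglyceride synthesis, 1 of 17 genes was higher (AGPAT2, 0.60, not passing after trend correction at 0.22) and 3 lower, with a median of -0.32, while 9 were lower after trend correction and 9 without S434A replicate 1. The lower members were SCD, the lipin phosphatase LPIN1 (-0.74) and the acetyl-CoA carboxylase ACACA (-0.61).

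Of 19 cholesterol genes 1 was higher and 3 lower, with a median of -0.37, and 8 were lower after trend correction and 11 without S434A replicate 1. LSS, lanosterol synthase, had 74.8, 66.8 and 48.5 CPM against 142, 146 and 114 CPM (log2 -1.08, adjusted p = 0.017, trend-corrected -1.29). CYP51A1 (-0.93) and SQLE (-0.37) were lower as counted, and stood at -0.04 and 0.46 after trend correction. The higher member was PMVK (0.88). Fatty acid oxidation and ketogenesis moved the other way, with 6 of 13 higher and 1 lower and a median of 0.30. ACADVL, which oxidises long acyl chains, had 477, 435 and 421 CPM against 237, 233 and 247 CPM (log2 0.90, adjusted p = 0.0086, trend-corrected 0.63). The carnitine carrier SLC25A20 (0.78), BDH1 (0.73) and HADHA (0.41) were higher in both analyses. Glycolysis had 8 of 20 higher and 0 lower, with a median of 0.37, and PGK1 stood at 0.70, ENO1 at 0.59, TPI1 at 0.56 and PFKL at 0.55. After trend correction PGK1 stood at 1.39 and TPI1 did not pass (0.17, adjusted p = 0.0823). After trend correction 6 of the 20 were higher and 3 lower.

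CYP1A1, a hydroxylase induced through the aryl hydrocarbon receptor, had 23.1, 21.8 and 16.7 CPM in untreated S434A against 68.5, 62.5 and 62.1 CPM in H89-treated wild type. The groups did not overlap, and the log2 fold change was -1.65 (SE 0.15, 3.14-fold lower, adjusted p = 0.0086), -1.95 after trend correction and -1.74 without S434A replicate 1. Means were 13.3 CPM in wild type without H89 and 59.2 CPM in S434A with H89. Of 10 xenobiotic and bile acid genes tested 0 were higher and 2 lower, with a median of -0.08, the other being the canalicular exporter ABCC2 (208, 302 and 345 CPM against 518, 529 and 541 CPM, log2 -0.89, trend-corrected -0.32). CYP24A1, which inactivates vitamin D, had 35.0, 35.4 and 32.3 CPM against 101, 93.3 and 104 CPM (log2 -1.54, SE 0.09, adjusted p = 0.0086, trend-corrected -1.43). It had the smallest SE of the 12 genes named in this direction, and its mean was 13.4 CPM in wild type without H89.

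CEMIP, which takes part in the breakdown of hyaluronan, had 48.4, 50.2 and 30.9 CPM against 129, 119 and 121 CPM (log2 -1.51, SE 0.19, adjusted p = 0.0101, trend-corrected -1.59). Its mean in wild type without H89 was 12.9 CPM, so that untreated S434A stood between the wild type groups. Of 14 basement membrane and matrix genes tested 1 was higher and 4 lower, with a median of -0.04. Beside CEMIP the lower ones were the laminin chains LAMB1 (148, 195 and 179 CPM against 286, 304 and 315 CPM, log2 -0.79), LAMC1 (-0.41) and LAMA3 (-1.04), and LAMB3 was higher (1.54) at 0.623 to 1.40 CPM. LAMB1 passed after trend correction (-0.69), and LAMC1 and LAMA3 did not. With RLE factors 2 members were lower. HSPG2, perlecan, had 157, 114 and 61.6 CPM against 100, 123 and 109 CPM (log2 0.00, 95% interval -0.79 to 0.80), and FN1, fibronectin, had 20231, 17450 and 11765 CPM against 15069, 16058 and 14335 CPM (0.12, interval -0.36 to 0.60). Both overlapped between the groups, with a wider spread in untreated S434A. Their means in wild type without H89 were 17.6 and 4029 CPM, below both groups.

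TNFRSF19, a receptor of the tumour necrosis factor family, had 17.4, 28.8 and 38.7 CPM against 96.1, 94.7 and 102 CPM (log2 -1.79, adjusted p = 0.0148, trend-corrected -1.47). DGKK, a diacylglycerol kinase, had 5.38, 10.1 and 13.1 CPM against 30.1, 31.3 and 38.8 CPM (-1.81, adjusted p = 0.0197). In both the lowest library was S434A replicate 1, and without it the values were -1.53 and -1.52. The same library was lowest in ADAMTS6, a secreted protease, at 0.215 CPM against 1.49 and 2.28 CPM in its replicates and 5.48 to 7.86 CPM in treated wild type (log2 -2.32, adjusted p = 0.0483, -1.81 without it and -1.37 after trend correction). The remaining genes of this direction were the zinc finger genes ZNF114 (-1.72) and ZNF608 (-1.62), the ETS repressor ELK3 (-1.86), the potassium channel subunit KCNG3 (-1.33) and RINT1 (-1.86), a factor of vesicle transport. S434A replicate 1 was also the lowest library in ZNF608, ELK3, KCNG3 and RINT1. Without it they stood at -1.44, -1.51, -1.03 and -1.46. After trend correction they stood at -1.39, -1.45, -1.34 and -1.31. ZNF114 had 2.26, 2.49 and 2.91 CPM against 9.23, 7.89 and 8.15 CPM, and it held -1.88 after trend correction.

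**Figure D3:**
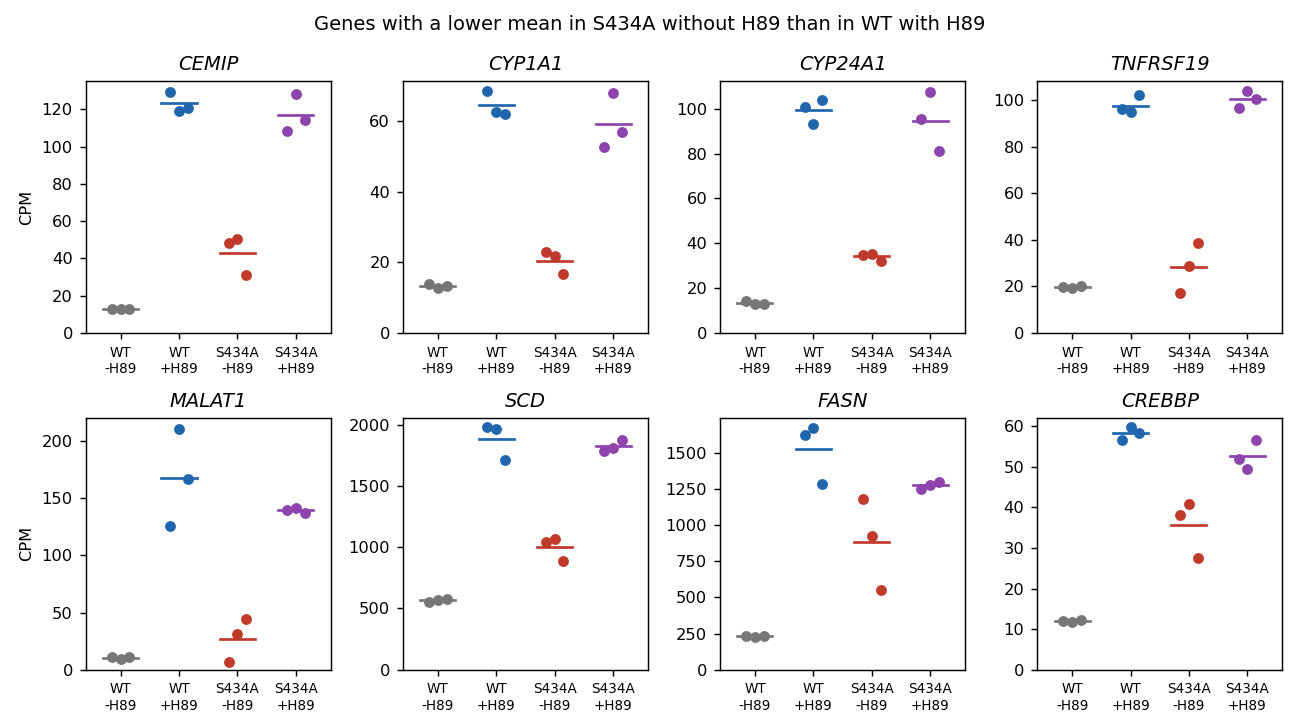
CPM of 8 genes (vertical axes from 0) in all 12 libraries, grouped on the horizontal axis as wild type without and with H89 and S434A without and with H89; points are libraries and bars are means of 3. The untreated S434A libraries (red) lie below the H89-treated wild type libraries (blue) in each panel, as in CYP24A1 with 32.3 to 35.4 against 93.3 to 104 CPM; FASN did not pass the test.

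MALAT1, an abundant nuclear long noncoding RNA of splicing speckles, had 6.67, 31.2 and 44.1 CPM against 126, 210 and 167 CPM (log2 -2.62, SE 0.65, adjusted p = 0.0397). The groups did not overlap, replicate 1 of S434A was lowest, and the value was -2.16 without it and -1.45 after trend correction. Of 7 nuclear long noncoding RNAs tested 0 were higher and 4 lower, with a median of -1.33. NEAT1, the core of paraspeckles, had 22.6, 31.2 and 35.7 CPM against 90.0, 175 and 91.9 CPM (log2 -1.996, adjusted p = 0.0156, trend-corrected -1.05). KCNQ1OT1, the imprinted antisense transcript (-1.98), and NORAD, which binds Pumilio proteins (-1.33), were lower, also after trend correction at -1.18 and -0.47. Since no strand option was set in the counting, reads of KCNQ1OT1 and of the gene it overlaps cannot be told apart. Very long transcripts for ubiquitin ligases and scaffolds had a median of -2.03, and all 15 were below 0 with no overlap between the groups. Only 2 of them passed, VPS13D (-1.13, trend-corrected -0.43), a lipid transfer protein, and HERC2 (-0.41), a ubiquitin ligase. Their median was -1.51 with 14 lower without S434A replicate 1, and -0.84 with 7 lower after trend correction.

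Many transcripts of the ribosome and of the nuclear-encoded respiratory chain were higher in untreated S434A than in H89-treated wild type. Wild type without H89 was higher still in ribosomal protein mRNA. This took 9.46% to 11.4% of counts in untreated S434A, 7.34% to 7.73% in H89-treated wild type and 19.4% to 19.9% in wild type without H89. Of 34 cytosolic ribosomal protein genes 24 were higher and 0 lower, with a median of 0.49, and 27 lay within 2-fold. RPL15 had 1720, 1665 and 2194 CPM against 986, 947 and 1030 CPM (log2 0.91, adjusted p = 0.0111, trend-corrected 1.05), and RPL8 (0.79), RPS2 (0.72) and RPS20 (0.68) were higher as well, although RPS2 did not pass after trend correction (0.33, adjusted p = 0.123). Many of these genes have processed pseudogenes with near-identical sequence, so single values are uncertain. After trend correction 20 were higher and 0 lower. Of 26 nuclear genes of the respiratory chain 15 were higher and 0 lower, with a median of 0.59, and 18 and 0 after trend correction. UQCRQ of complex III (0.92), SDHC of complex II (0.76), the ATP synthase subunit ATP5F1B (0.70), COX4I1 (0.61) and UQCRC1 (0.61) were higher. Their means in wild type without H89 were 298, 419, 2069, 1109 and 908 CPM, above both groups. The 13 mRNAs encoded in mitochondria had a median of -0.22, with 1 higher (MT-ND3, 0.42) and 0 lower. Without S434A replicate 1, whose mitochondrial share was the highest of the 6 libraries, their median was -0.73 with 10 lower and 1 higher.

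Transcription factors and nuclear receptors of hepatocytes mostly stayed within 2-fold. Of 19 tested 2 were higher and 3 lower, with a median of -0.07, and the intervals of 14 lay within 2-fold. NR1H3, the oxysterol receptor LXR alpha, had 46.5, 47.1 and 47.1 CPM against 30.1, 31.0 and 32.3 CPM (log2 0.59, adjusted p = 0.0129), and FOXA3 was higher at 0.55. Neither passed after trend correction, at 0.32 and 0.14. NR5A2 (-1.49), the thyroid hormone receptor THRB (-1.41) and ONECUT1 (-1.04) were lower, and THRB (-0.79) and ONECUT1 (-1.19) passed after trend correction while NR5A2 did not (-0.42). There 9 members were lower and 0 higher. In insulin and IGF signalling 1 of 15 was higher (AKT1, 0.52) and 4 lower, with a median of -0.13: the regulatory subunit PIK3R1 (-1.997), FOXO1 (-0.52), IGF1R (-0.47) and IRS1 (-0.45). With RLE factors 2 were lower, and with TMM factors from all genes with a nonzero total 0 were lower and 3 higher. Trend-corrected values were -0.68 for PIK3R1, -0.34 for FOXO1, -0.31 for IGF1R, -0.34 for IRS1 and 0.38 for AKT1.

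Of 25 SRF and YAP targets, genes that respond to actin and to cell tension, 7 were higher and 1 lower, with a median of 0.14. CNN1, calponin, was near 1 CPM in untreated S434A (1.08, 1.05 and 0.882 CPM) and at 0.137, 0.211 and 0.188 CPM in treated wild type (log2 2.44, adjusted p = 0.00868). CCN1, a secreted matrix protein, had 39.9, 37.4 and 34.2 CPM against 21.7, 17.6 and 20.8 CPM (0.89, adjusted p = 0.012). TAGLN (1.07), AJUBA (0.76) and CCN2 (0.59) were higher, and all of these but CCN2 passed after trend correction. CXCL8, a neutrophil chemokine, had 3.17, 7.81 and 12.9 CPM against 2.88, 2.83 and 3.91 CPM. The groups overlapped through S434A replicate 1, and the log2 fold change was 1.31 (adjusted p = 0.0967), 1.70 without that library (adjusted p = 0.00233) and 2.07 after trend correction (adjusted p = 0.000847). Its mean was 37.8 CPM in wild type without H89.

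**Figure D4:**
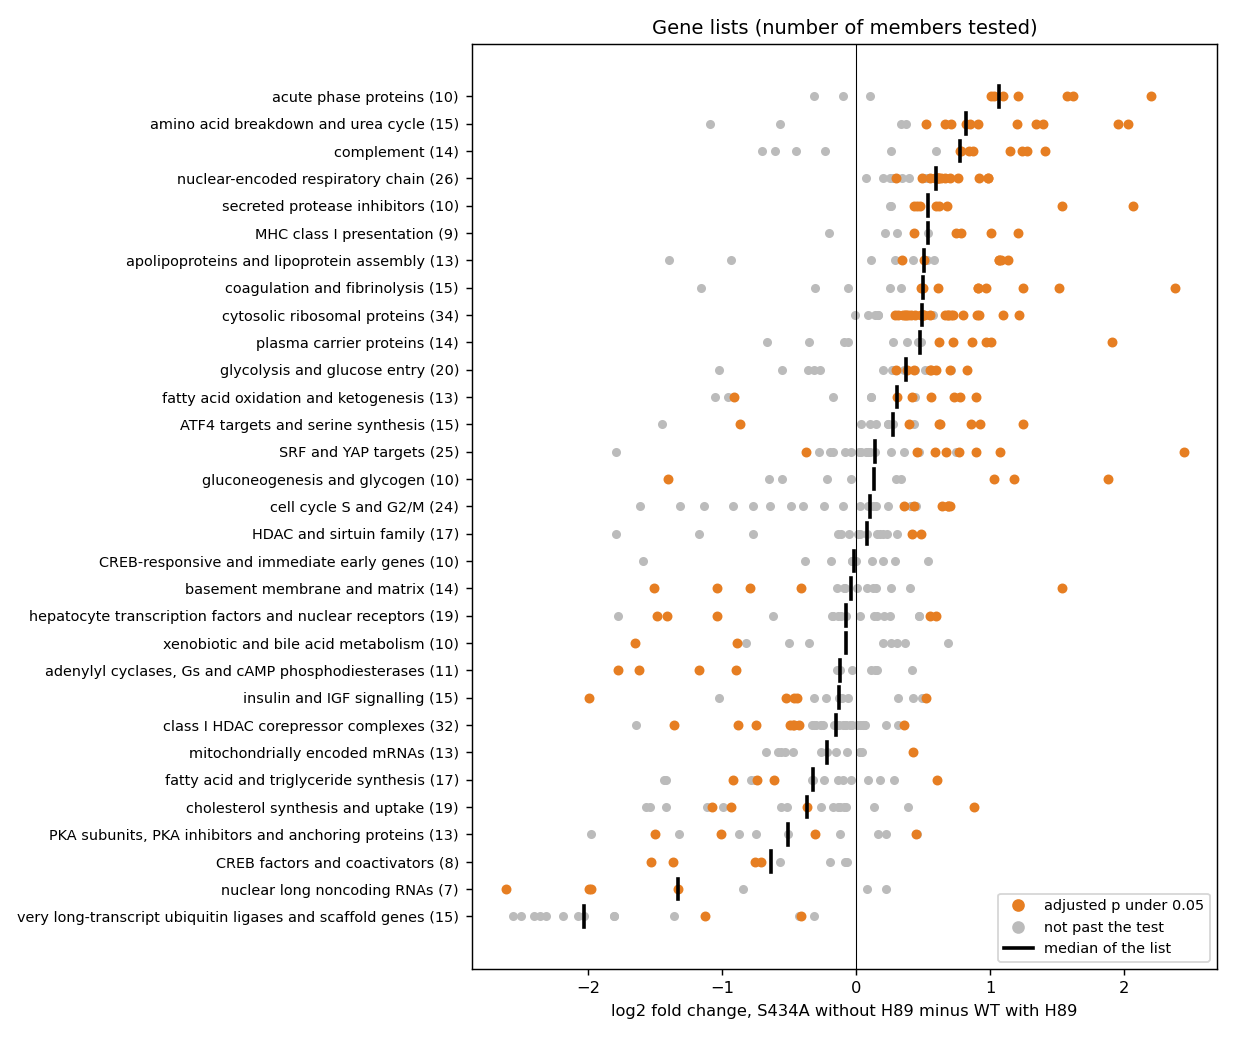
Log2 fold change of untreated S434A minus H89-treated wild type (horizontal axis) for the tested members of each list (rows, number tested in brackets), ordered by list median; orange points have an adjusted p under 0.05, grey points do not, and black bars are medians. Acute phase genes have the highest median, 1.06, and the very long transcripts the lowest, -2.03, with only 2 of their 15 members past the test.

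The plot of values before and after trend correction places the named genes against all others. All 24 genes with the largest differences held their sign, as the rule for naming them required. PLG moved from 2.38 to 3.42 and MALAT1 from -2.62 to -1.45. HDAC2, CREB1 and PRKAR1A, which had negative values as counted, moved above 0, and HDAC1 moved from 0.02 to -0.13.

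**Figure D5:**
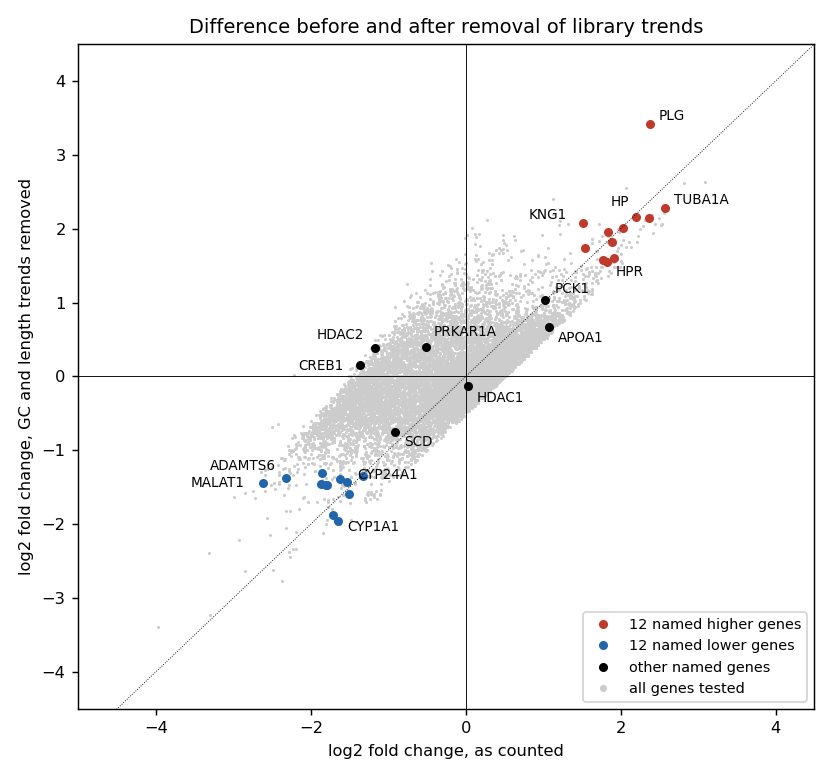
Log2 fold change of untreated S434A minus H89-treated wild type as counted (horizontal axis) and after removal of each library's GC and length trends (vertical axis), 1 point per gene; red and blue points are the 12 named higher and 12 named lower genes, black points are other named genes and the dotted line marks equal values. PCK1 lies on the line at 1.03, and CREB1 moves from -1.37 to 0.16.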

How the data were processed

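HepG2 RNA was sequenced in 4 groups of 3 replicates. The authors deposited counts of read pairs for each gene, whole numbers made with featureCounts 2.0.1 per the file headers, which name an hg19 annotation and set no strand option. Alignment used Bowtie 0.12.2 and hg19 per the submitters' processing notes, and other read processing is not given in the sources used here. Of 62475 gene identifiers 58676 were matched to a symbol.

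The 6 libraries of the 2 groups entered edgeR 4.0.16 (R 4.3.3): filterByExpr with a minimum count of 10, TMM factors from all 12 libraries, a robust quasi-likelihood F test without a block, and Benjamini-Hochberg adjustment over all genes tested. Calls used the submitters' thresholds of more than 2-fold and adjusted p below 0.05. In gene lists, "higher" and "lower" need only the adjusted p, whatever the fold, and no list was tested as a set. The SE is the log2 fold change divided by the square root of F. GC and length trends were removed by an offset from splines with 5 degrees of freedom each. GC content came from GENCODE and positions of genes from the deposited table. The script was tested on simulated data.

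Named genes were HDAC1, the 12 largest differences in each direction among genes called in both analyses with no overlap of libraries and a mean of 5 CPM or more in the group above, up to 5 members with the smallest p of each list described (or 2 by level where none passed), and a fixed set. A few genes that this rule names are left out of the text. The comparison, the lists and these genes were chosen with earlier results of these data known. Labels call the libraries biological replicates without naming separate cultures, so p-values measure the spread between these libraries. Alternatives used limma 3.58.1, DESeq2 1.42.0, other factors and filters, all 12 libraries, a block for the replicate number, and fits that each omit a library; TMM factors from all genes with a nonzero total were added after the data were seen. No 2 replicates agreed within sampling noise (chi-square per degree of freedom 5.98 to 162).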

Additional observations from a re-analysis of the deposited data

How the results depend on the processing

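The counts of genes past 2-fold moved most. Genes higher numbered 558 with upper-quartile factors and 514 with TMM factors from all genes with a nonzero total, beside 338. Genes lower numbered 364 with RLE factors, 357 with those TMM factors, 1436 in DESeq2, 1470 in limma-voom with group quality weights, 2036 with all 12 libraries in the fit, 291 after removal of GC and length trends, 266 after that removal without S434A replicate 1, and 292 after that removal with the replicate block, beside 587. At any fold, 4802 genes passed in DESeq2, 7328 with all 12 libraries and 5956 after trend removal without S434A replicate 1, beside 3093. The replicate block alone gave 0 higher, 0 lower and 0 at any fold (edgeR, lowest adjusted p 0.0536, 6162 genes at an unadjusted p under 0.05). Whether the shared numbers pair the libraries was not settled. Deviations correlated at 0.32, -0.15 and 0.52 in numbers 1, 2 and 3, and at -0.53 to 0.35 between unlike numbers. Deviations of 3 libraries from their own mean depend on each other, so these values cannot decide it. Leaving out 1 library gave 0 to 440 higher, 0 to 1862 lower and 0 to 6321 at any fold.

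Of 145 named genes past the test, 140 kept their sign under every alternative. After trend removal HDAC1 stood at -0.13 (-0.10 without S434A replicate 1, -0.13 with the replicate block), APOA2 at -0.15 (-0.10 and -0.16), HDAC2 at 0.38 (0.16 and 0.37), HSPG2 at -0.27 (-0.37 and -0.28), ID1 at -0.20 (-0.23 and -0.20), PRKACA at -0.037 (-0.052 and -0.036), PRKAR1A at 0.40 (0.31 and 0.39) and SQLE at 0.46 (0.12 and 0.41). After trend removal ALB stood at 0.14 (0.50 without S434A replicate 1), and CREB1 at 0.16, CREM at 0.13, RCOR3 at 0.17 and MTA3 at 0.0019 (0.15, 0.13, 0.18 and 0.00023 with the replicate block). FOS and NR4A1 stood at 0.049 and 0.078 with RLE, 0.10 and 0.13 with upper-quartile, and 0.076 and 0.10 with TMM factors from all genes with a nonzero total. HSPG2 stood at -0.0075 in DESeq2, -0.10 in limma-voom and -0.094 with the replicate block. Leaving out 1 library moved HDAC1 from -0.023 to 0.072, ALB from -0.86 to 0.13, FN1 from -0.053 to 0.31, FOS from -0.15 to 0.19, HSPG2 from -0.34 to 0.29 and NR4A1 from -0.12 to 0.13. The cause of these moves was not tested. What depth limits was not tested.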

Other observations

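Of 9 genes of MHC class I presentation, which displays peptides to T cells, 5 were higher in untreated S434A than in H89-treated wild type and none was lower (median log2 difference 0.53). HLA-B had 19.7, 15.7 and 14.5 CPM against 6.26, 7.68 and 7.63 CPM (1.21, edgeR adjusted p = 0.013), and the groups did not overlap. HLA-F (1.003), HLA-C (0.75) and HLA-E (0.43) were higher, HLA-C and HLA-E did not pass after removal of GC and length trends (0.35 and 0.06), and reads of these related genes can be shared.

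Of 24 cell cycle genes 6 were higher and 0 lower, with a median of 0.10 and 16 within 2-fold. RRM2, which supplies deoxynucleotides, had 191, 187 and 177 CPM against 109, 113 and 119 CPM (0.70, adjusted p = 0.00924, 1.37 after trend removal). CCNE1 (0.68), MCM7 (0.68), AURKB (0.64) and CDC6 (0.43) were higher, and AURKB did not pass after trend removal (0.20). Without S434A replicate 1, 6 members were higher and 4 lower. Of 21 proteasome subunits 7 were higher and 0 lower (median 0.13), and of 17 LSM and snRNP proteins of the spliceosome 7 were higher and 0 lower (median 0.31).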
